A study of Mus musculus with 8 samples.

Results

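The primary microcephaly centrosome genes were followed here through the embryonic brains of a maternal choline deficiency experiment. They are 10 genes chosen by name, *Aspm*, *Mcph1*, *Wdr62*, *Cdk5rap2*, *Cenpj*, *Stil*, *Cep152*, *Cep135*, *Cep63* and *Cit*, out of 33971 genes in the deposited table. All 10 were found under 1 identifier each, and all 10 were among the 19367 genes that passed the filter on low counts. The samples were whole brains of wild-type (WT) mouse embryos collected at E14.5, in the middle of neurogenesis, 4 from dams on a choline-deficient diet (CDD) and 4 from dams on a normal chow diet (ND). WT females were mated with WT males, and the diets were given from the day of mating. Strain, embryo sex and the number of dams and litters are not given in the sources used here, so litter and diet cannot be told apart, and the p-values measure the spread between these brains only.

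Primary microcephaly is a brain that is small at birth but largely normal in structure, and in families it is inherited in a recessive way. Most of its genes encode proteins of the centrosome, the organelle that is built around centrioles and forms the poles of the mitotic spindle. During neurogenesis the progenitors that line the ventricle divide again and again, and their divisions need centrioles that are copied once per cycle, a spindle of the right orientation and a clean final cut between daughter cells. CEP63 and CEP152 form the ring on the parent centriole where a new one starts. STIL, CEP135 and CENPJ build and lengthen the new centriole, CDK5RAP2 anchors microtubule nucleation in the surrounding material, and ASPM and WDR62 sit at the spindle poles. MCPH1 restrains early chromosome condensation and takes part in the DNA damage response, and the kinase encoded by *Cit* (citron kinase) acts at the midbody at the end of division.

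In all 10 genes the estimated RNA level was higher in the CDD brains, and in 4 of them (*Stil*, *Aspm*, *Cep135* and *Cdk5rap2*) the difference passed an adjusted p of 0.05 in edgeR's quasi-likelihood test. These 4 are 40% of the genes. Of all tested genes 8.83% passed the same rule, 4.24% as higher and 4.59% as lower in CDD. None of the 10 genes fell. The increases were modest. *Stil* and *Aspm* rose by 32.8% and 31.0%, *Cep135* by 14.7% and *Cdk5rap2* by 12.9%. The median log2 fold change of the 10 genes was 0.16, with a range from 0.03 to 0.41, and the median over all tested genes was -0.0038. In bulk brain RNA, fewer cells of a type and less RNA per cell cannot be told apart, and neither can more of either.

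The libraries held between 31770217 and 43121170 counts, so that the 10 genes had between 463 and 5305 reads each in every brain. Values per brain are given as CPM, the count scaled to a common library size with TMM factors. Marker genes of neural progenitors and neurons were present in all 8 brains. One CDD brain, replicate 2, held 131.9 CPM summed over 13 *Hox* genes of the spinal cord and caudal hindbrain, where the other brains held from 0.0578 to 2.08 CPM. ND replicate 3 held 2881 CPM of adult globin RNA against 611 to 1544 CPM in the others. Where leaving out either library changed a call among the 10 genes, this is given below.

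The promoters of the genes are shown first, since the letters that bind cell cycle regulators can be read there. Of the 10 genes, 9 had a RefSeq start site in GRCm38.p6, and *Mcph1* had none in the table used. Both strands of the 300 bases from 250 before to 50 after each start were searched for CCAAT, the box bound by NF-Y, and for TTTGAA, the core of the cell cycle homology region (CHR) through which the DREAM complex keeps mitotic genes silent outside of division. In these windows no match of one motif overlapped a match of the other. Below are the 250 bases before the start, 5′ to 3′ on the strand of the gene, with matches in capitals, for the pair that rose the most (*Stil* and *Aspm*), for *Wdr62*, which has the same number of CCAAT boxes and did not pass the test, and for *Cep63*, which has no match and had the smallest difference. ATTGG is CCAAT on the other strand.
Stil (chr4:114999868-115000117, plus strand): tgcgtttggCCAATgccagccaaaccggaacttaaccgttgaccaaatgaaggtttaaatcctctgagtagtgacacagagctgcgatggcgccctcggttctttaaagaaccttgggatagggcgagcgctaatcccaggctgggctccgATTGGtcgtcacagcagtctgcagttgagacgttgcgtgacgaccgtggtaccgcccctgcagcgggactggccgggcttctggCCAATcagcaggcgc
Aspm (chr1:139454523-139454772, plus strand): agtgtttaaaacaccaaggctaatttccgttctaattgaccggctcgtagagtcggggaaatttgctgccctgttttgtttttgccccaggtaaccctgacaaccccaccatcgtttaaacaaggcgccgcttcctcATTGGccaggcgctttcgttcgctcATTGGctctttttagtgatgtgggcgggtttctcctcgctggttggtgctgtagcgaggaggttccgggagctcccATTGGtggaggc
Aspm, the 30 bases from the start site (chr1:139454773-139454802, plus strand): gcgataTTTGAAccgagcaaaagcggctgg
Wdr62 (chr7:30280422-30280671, minus strand): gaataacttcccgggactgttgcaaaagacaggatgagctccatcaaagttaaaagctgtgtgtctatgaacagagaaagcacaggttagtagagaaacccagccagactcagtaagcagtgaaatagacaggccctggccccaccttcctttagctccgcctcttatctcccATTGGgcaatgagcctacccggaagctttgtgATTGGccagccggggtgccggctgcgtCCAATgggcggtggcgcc
Cep63 (chr9:102626125-102626374, minus strand): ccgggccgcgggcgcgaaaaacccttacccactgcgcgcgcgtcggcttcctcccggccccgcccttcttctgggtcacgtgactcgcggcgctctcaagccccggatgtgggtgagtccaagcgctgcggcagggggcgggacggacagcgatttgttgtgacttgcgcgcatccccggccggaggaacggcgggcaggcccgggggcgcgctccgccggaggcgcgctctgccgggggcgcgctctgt

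In *Stil* the CCAAT boxes lie 241, 99 and 15 bases before the start, and in *Aspm* 113, 88 and 12 bases before it. The *Aspm* window also holds the CHR core, 7 bases after the start. *Wdr62* has 3 CCAAT boxes within 77 bases of the start shown. In *Cep152*, another gene that did not pass the test, there were 3 as well. Across the 9 genes with a window, 5 had a CCAAT box, 4 had at least 3, and 2 (*Aspm* and *Cdk5rap2*) had the CHR core. Of 32851 windows of the same length over all genes, 37.4% held a CCAAT box, 3.37% held at least 3 and 17.9% held the CHR core. *Cit*, *Cep63* and *Cenpj* had neither motif. A match is a description of the letters, and binding was not measured.

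Levels can be compared between the genes only per length, and for that the deposited FPKM values were used. *Cdk5rap2* was the most abundant, with a mean of 9.001 FPKM over the 8 brains and a range from 8.30 to 10.7. *Aspm* followed at 5.14 FPKM, with a range (4.16 to 7.06) that overlapped that of *Cenpj* at 4.56 FPKM (4.07 to 5.28). The *Cenpj* range did not overlap that of *Cep63*, the next gene by mean, but overlapped that of *Stil* (2.67 to 4.57). *Cep63* (3.47 FPKM), *Stil* (3.46), *Cep135* (3.24), *Cep152* (3.02), *Cit* (2.74), *Wdr62* (2.55) and *Mcph1* (2.07) each overlapped the next gene in that order. The median tested gene was at 3.90 FPKM, so 7 of the 10 genes lay below it.

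**Figure D1:**
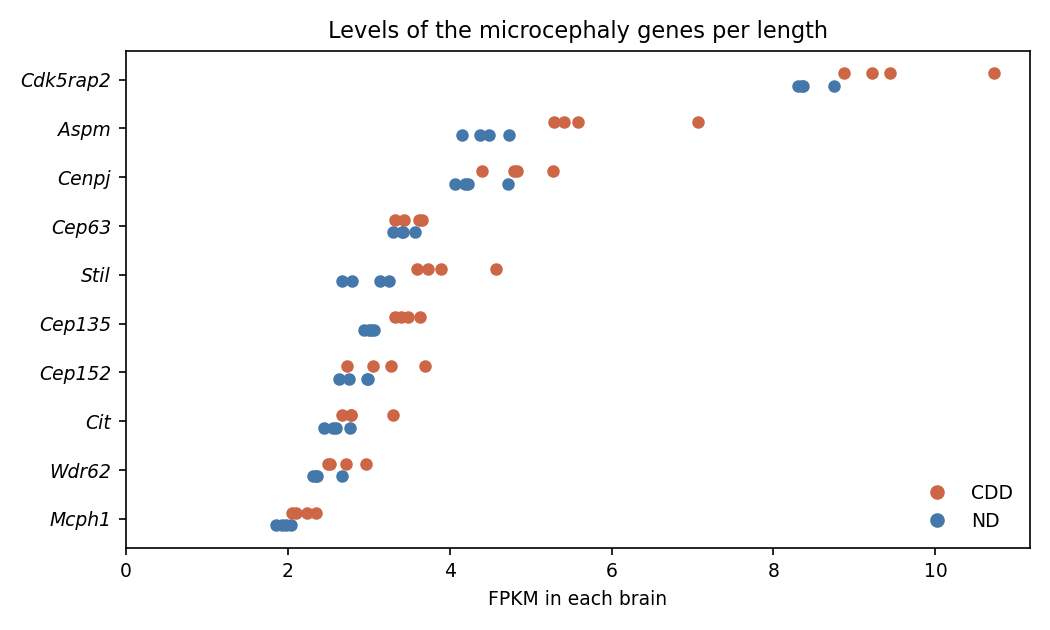
FPKM of the 10 genes in the 8 brains, ordered by mean level. Points are brains, coloured by maternal diet (n = 4 each). *Cdk5rap2* stands alone above 8 FPKM, and the 7 lowest genes form a run in which neighbours overlap.

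Of the ring on the parent centriole, *Cep63* (ENSMUSG00000032534, chromosome 9 from 102461787 to 102503733, in coordinates whose build the table does not name) measured 35.1, 32.0, 35.3 and 32.9 CPM in CDD replicates 1 to 4. In ND replicates 1 to 4 it measured 32.9, 33.0, 31.9 and 34.5 CPM. The diets overlapped along most of their range, and the log2 difference was 0.03 (95% interval -0.09 to 0.15, adjusted p = 0.792 by edgeR's quasi-likelihood test). Its span overlaps *Anapc13* on the other strand, a subunit of the anaphase-promoting complex that starts 238 bases away and had 49.8% as many reads. Whether counting used strand is not given in the sources used here, so reads from the overlap cannot be told apart. *Anapc13* had a log2 difference of -0.09 (adjusted p = 0.515, edgeR).

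*Cep152* (ENSMUSG00000068394, chromosome 2 from 125405008 to 125467033), which recruits the kinase PLK4 to the ring, measured 17.8, 15.8, 19.0 and 21.3 CPM in the CDD brains and 16.0, 17.3, 17.4 and 15.3 CPM in the ND brains. CDD replicate 2 lay among the ND brains and the other CDD brains lay above them. The log2 difference was 0.16 (95% interval -0.01 to 0.34, adjusted p = 0.246, edgeR), and the interval holds 0. Without CDD replicate 2 the log2 difference was 0.23 (adjusted p = 0.0888, edgeR).

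*Stil* had the largest difference of the 10 genes. Its product is the partner of PLK4 that assembles the cartwheel, the scaffold of the new centriole. *Stil* (ENSMUSG00000028718, chromosome 4 from 114857356 to 114900393) measured 22.8, 20.9, 21.7 and 26.4 CPM in the CDD brains. In the ND brains it measured 16.3, 18.9, 18.4 and 15.6 CPM. The diets did not overlap, with the highest value in CDD replicate 4 and the lowest in ND replicate 4. Means were 23.0 ± 2.40 and 17.3 ± 1.61 CPM (SD, n = 4), a log2 fold change of 0.41 ± 0.081 (SE, adjusted p = 0.00497, edgeR). The call held when each brain was left out in turn, with log2 fold changes between 0.34 and 0.46.

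*Cep135* (ENSMUSG00000036403, chromosome 5 from 76736545 to 76794313) encodes a protein that ties the cartwheel to the centriole wall. It measured 26.4, 24.6, 24.0 and 24.9 CPM in the CDD brains. In the ND brains the values were 21.9, 22.1, 21.3 and 21.7 CPM. The ND brains lay close together and all CDD brains lay above them, the highest being CDD replicate 1. The log2 fold change was 0.20 ± 0.059 (SE, adjusted p = 0.0417, edgeR). This call was near the threshold, and it was lost without CDD replicate 1 (adjusted p = 0.0971), CDD replicate 2 (0.0552) or any of the ND brains (0.0636 to 0.143), with log2 fold changes from 0.17 to 0.22 (edgeR).

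*Cenpj* (ENSMUSG00000064128, chromosome 14 from 56764218 to 56812882) encodes CPAP, which adds tubulin to the growing centriole. It measured 26.0, 23.6, 21.5 and 23.3 CPM in the CDD brains and 20.7, 23.1, 20.01 and 20.6 CPM in the ND brains. CDD replicate 3 lay below ND replicate 2 and the diets overlapped there. The log2 difference was 0.16 (95% interval 0.01 to 0.31, adjusted p = 0.164, edgeR). *Parp4*, which starts 194 bases away on the other strand, had a log2 difference of -0.01 (adjusted p = 0.975, edgeR).

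**Figure D2:**
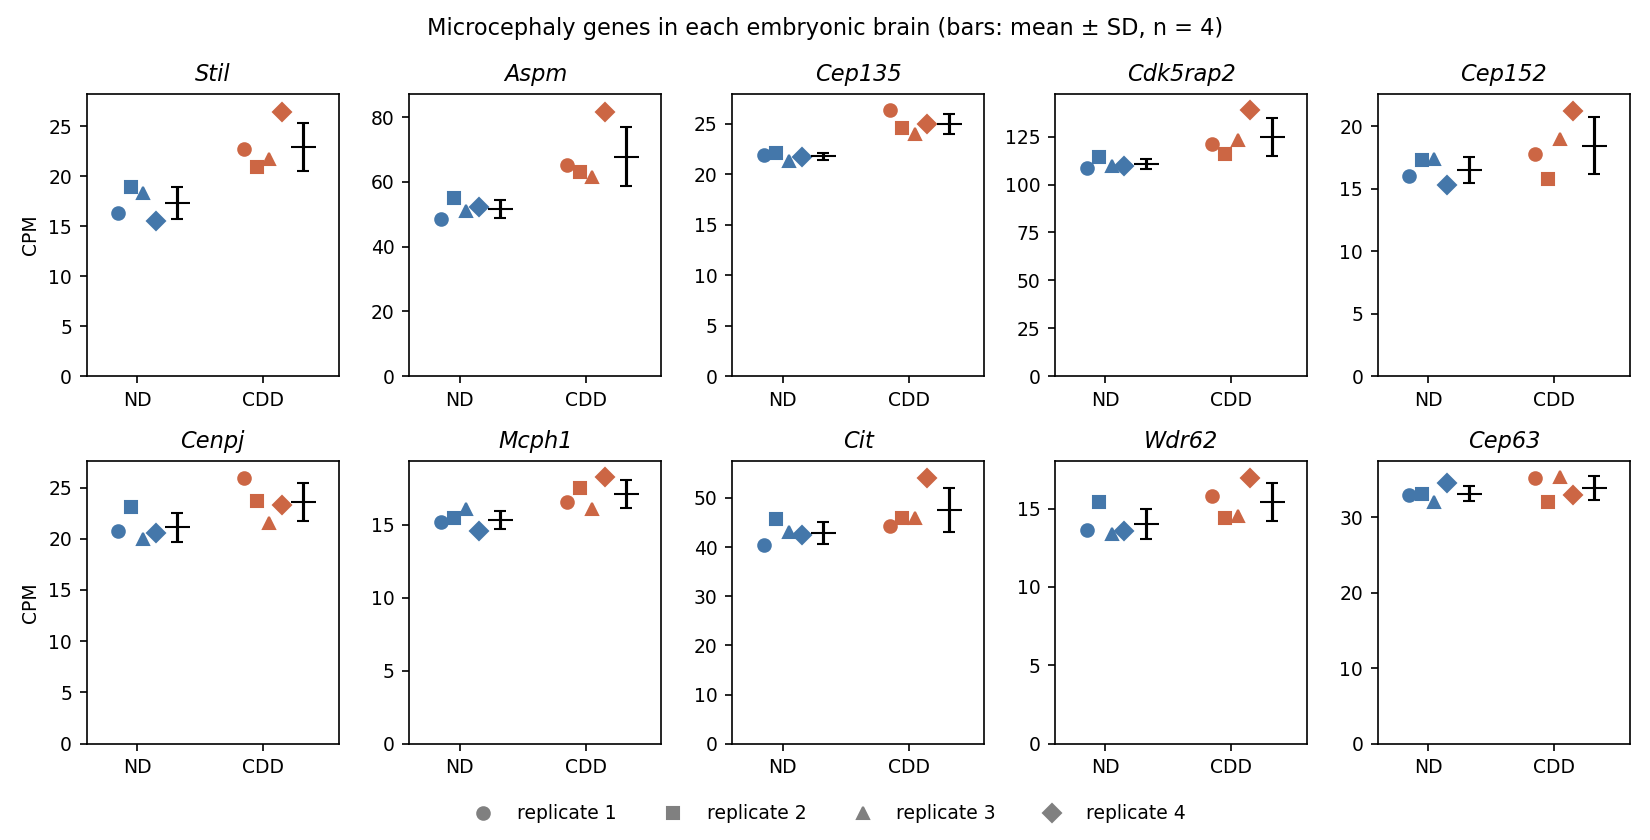
CPM of each of the 10 genes in the 4 CDD and 4 ND brains, with diet means and SD, on axes of their own that start at 0. The diets are apart in *Stil*, *Aspm*, *Cdk5rap2* and *Cep135*, with CDD higher, and overlap in the other panels.

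In the material around the centriole, *Cdk5rap2* (ENSMUSG00000039298, chromosome 4 from 70135093 to 70328680) measured 121, 116, 123 and 139 CPM in the CDD brains. In the ND brains it measured 109, 114, 110 and 110 CPM. All CDD brains lay above all ND brains, but CDD replicate 2 and ND replicate 2 were close. The log2 fold change was 0.17 ± 0.049 (SE, adjusted p = 0.0331, edgeR). Leaving out any single ND brain took the adjusted p to between 0.0510 and 0.128, while it held without any single CDD brain (edgeR, log2 fold changes from 0.12 to 0.21 over the 8 fits). The processed pseudogene *Ywhaq-ps3* lies within the gene on the same strand, with 5.84% as many reads and a log2 difference of 0.00 (adjusted p = 0.986, edgeR).

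At the spindle poles, *Aspm* (ENSMUSG00000033952, chromosome 1 from 139382510 to 139421829), the gene most often mutated in primary microcephaly, measured 65.3, 63.0, 61.6 and 81.5 CPM in the CDD brains. In the ND brains it measured 48.4, 55.1, 51.1 and 52.3 CPM. The lowest CDD brain was above the highest ND brain, and CDD replicate 4 was far above the other CDD brains. Means were 67.9 ± 9.24 and 51.8 ± 2.78 CPM (SD, n = 4). The log2 fold change was 0.39 ± 0.078 (SE, adjusted p = 0.00955, edgeR). Without CDD replicate 4 the call held, and it was lost only without ND replicate 3, the brain rich in adult globin (adjusted p = 0.0545, edgeR). Without ND replicate 3 the log2 fold change was 0.385, against 0.390 with all brains. In that fit 471 genes were called over all tested genes, against 1710 with all brains. Over the 8 fits the log2 fold change lay between 0.29 and 0.44.

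*Wdr62* (ENSMUSG00000037020, chromosome 7 from 29939563 to 29979844), a scaffold that links the poles to JNK signaling, measured 15.8, 14.37, 14.54 and 17.0 CPM in the CDD brains and 13.6, 15.4, 13.4 and 13.6 CPM in the ND brains. ND replicate 2 reached into the CDD range, above CDD replicates 2 and 3. The log2 difference was 0.14 (95% interval -0.02 to 0.30, adjusted p = 0.292, edgeR).

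*Mcph1* (ENSMUSG00000039842, chromosome 8 from 18645147 to 18853205) measured 16.6, 17.6, 16.1 and 18.3 CPM in the CDD brains and 15.2, 15.5, 16.1 and 14.6 CPM in the ND brains. CDD replicate 3 and ND replicate 3 had nearly the same value, and on the FPKM scale the diets did not overlap. The log2 difference was 0.16 (95% interval 0.01 to 0.30, adjusted p = 0.169, edgeR). *Angpt2*, an angiopoietin gene within it on the other strand, had 22.5% as many reads and a log2 difference of -0.16 (adjusted p = 0.462, edgeR).

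*Cit* (ENSMUSG00000029516, chromosome 5 from 115983337 to 116147006) measured 44.4, 45.8, 45.9 and 54.1 CPM in the CDD brains and 40.4, 45.8, 43.1 and 42.4 CPM in the ND brains. CDD replicate 4 was high, and ND replicate 2 lay among the other CDD brains. The log2 difference was 0.15 (95% interval 0.02 to 0.28, adjusted p = 0.154, edgeR).

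Side by side, the 10 genes showed the same sign with different sizes. In 4 genes the lowest CDD brain was above the highest ND brain, and these were the 4 that passed the test. In none were all CDD brains the lower ones. Over all tested genes 7.65% were apart with CDD higher and 7.39% with CDD lower. CDD replicate 4 was the highest brain for 7 of the 10 genes. Without this brain 4 genes were still called, and the median log2 difference was 0.12. *Cit*, *Cep152* and *Wdr62* then stood at 0.08, 0.09 and 0.09, while *Cenpj* (0.16) and *Cep63* (0.04) did not drop. Leaving out ND replicate 3 instead left 1 gene called, and leaving out ND replicate 1, 2 or 4 left 2. An unadjusted p under 0.05 was reached by 7 genes, all higher, where 23.9% of all tested genes reached it and 11.8% did so as higher. The intervals of the 6 genes that missed the adjusted threshold reach up to log2 differences between 0.15 and 0.34, so increases of the size seen in *Cep135* and *Cdk5rap2* lie within all of those intervals except that of *Cep63*. In simulated counts for this design, the test called 12 of the 50 genes given a log2 change of 0.25 and 27 of the 49 given a change of 0.5. Far fewer genes were changed in the simulation than were called here, so its adjusted threshold was stricter. These shares are therefore not a rate for the 10 genes.

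**Figure D3:**
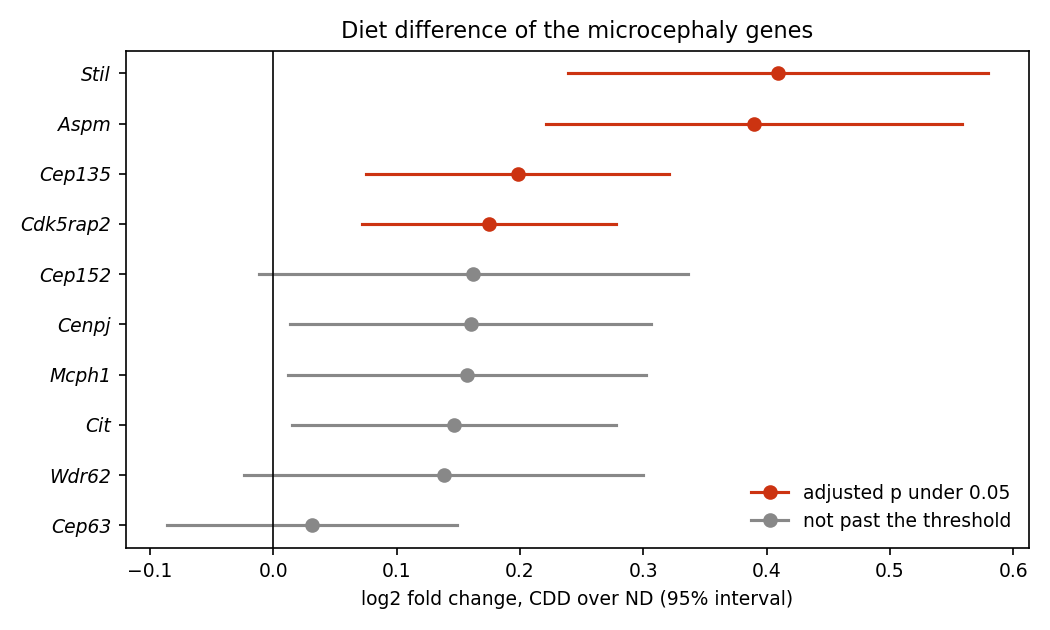
Log2 fold change of CDD over ND for each of the 10 genes with its 95% interval, from edgeR. Filled red marks pass an adjusted p of 0.05, and all 10 estimates lie above 0, from 0.03 for *Cep63* to 0.41 for *Stil*.

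Beyond the 10 genes, other microcephaly genes and the rest of the centrosome were examined with gene lists. For all counts of this kind, 4.24% of all tested genes rose and 4.59% fell. Among 21 other primary microcephaly genes, 7 rose and 0 fell, with a median log2 difference of 0.10. They were led by *Bub1*, a spindle checkpoint kinase (0.42, adjusted p = 0.00396), and *Cenpe*, a kinetochore motor (0.44, adjusted p = 0.00685, edgeR). Of 30 other centriole duplication genes, 4 rose and 0 fell, with a median of 0.05. They included *Plk4*, the kinase that starts duplication and acts with STIL (0.24, adjusted p = 0.0361), and *Ccp110*, which caps the centriole end (0.21, adjusted p = 0.00469, edgeR). The *Plk4* call was lost in 6 of the 8 fits that leave out a brain, and of the whole list 1 gene rose when either CDD brain 1 or 4 or any of the ND brains 1, 3 and 4 was left out, and 2 when CDD brain 2 was. Among the other microcephaly genes 3 rose without ND replicate 3, and 4 without ND replicate 1 or 4.

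In the pericentriolar material, 3 of 29 genes rose and 1 fell (median 0.04). *Nedd1*, which brings the gamma-tubulin ring to the centrosome, rose by 0.44 (adjusted p = 0.00431), while *Nin*, a subdistal appendage protein, fell by 0.26 on the log2 scale (adjusted p = 0.00605, edgeR). Of 20 spindle pole and orientation genes, the company of *Aspm* and *Wdr62*, 7 rose and 0 fell (median 0.15), among them *Kif11*, the motor that pushes the poles apart (0.39, adjusted p = 0.000671), and *Nde1*, a dynein regulator that is itself a microcephaly gene (0.30, adjusted p = 0.00287, edgeR). Of 13 midbody and cytokinesis genes, the company of *Cit*, 12 rose and 0 fell (median 0.27), among them *Ect2* and *Racgap1*, which position the cleavage furrow (0.40 and 0.27, adjusted p = 0.00326 and 0.00233, edgeR). That count fell to 3 without ND replicate 3, 4 without ND replicate 4, 5 without ND replicate 1 and 6 without CDD replicate 1. The spindle pole count fell to 4 without ND replicate 3, and the pericentriolar count to 1 without ND replicate 1, 2 or 3.

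Genes of the cycling cell were counted in the same way. In the G2 and M phase list 13 of 18 genes rose and 0 fell (median 0.30), with *Top2a* at 0.44 and *Ccnb1* at 0.37 (adjusted p = 0.00287 and 0.00213, edgeR). In the S phase list 13 of 19 rose and 0 fell (median 0.24), with *Pola1* at 0.47 and *Mcm2* at 0.32 (adjusted p = 0.00116 and 0.00156, edgeR). Without ND replicate 3, 1 or 4 the G2 and M phase count was 7, 8 and 8, and without ND replicate 4 the S phase count was 8. Loss of centrosome genes is known to act through p53 and a mitotic surveillance pathway. Of 11 genes of that list, 2 rose and 1 fell (median 0.09). *Ccng1*, a p53 target, rose by 0.22 (adjusted p = 0.0210) and *Phlda3*, another target, fell by 0.41 on the log2 scale (adjusted p = 0.0191, edgeR). These 2 calls depended on single libraries and held in 4 and 5 of 8 fits. The other gene that rose was *Trp53inp1* (0.24, adjusted p = 0.0445, edgeR). *Cdkn1a* had the largest difference, 0.58, and did not pass (adjusted p = 0.183, edgeR). *Trp53inp1* and *Cdkn1a* were named after their values were seen. Of the 11 estimates 8 were above 0. Of the whole list 0 genes rose without CDD replicate 1 or ND replicate 2, 3 or 4, 1 rose without CDD replicate 2 or ND replicate 1, and 3 rose without CDD replicate 3. The number that fell was 0 without ND replicate 1, 3 or 4 and 2 without CDD replicate 3.

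Markers of the cells that could carry these transcripts moved as follows. Of 13 apical progenitor markers 6 rose and 0 fell (median 0.21), led by *Nes* (0.47) and *Prom1* (0.36, both adjusted p = 0.00344, edgeR). That count was 3 without ND replicate 1, 3 or 4, and 4 without CDD replicate 1. Their summed level was 1875 to 2047 CPM in the CDD brains and 1672 to 1799 CPM in the ND brains, without overlap. Of 6 intermediate progenitor markers 2 rose and 0 fell (median 0.24). These 2 were *Btg2* (0.35, adjusted p = 0.00322) and *Neurog2* (0.32, adjusted p = 0.00475, edgeR). Of the 6 estimates 4 were above 0. *Eomes* did not pass (0.17, adjusted p = 0.0687, edgeR), and *Insm1* and *Gadd45g* stood at -0.08 and -0.05. The summed level of the 6 markers overlapped, at 446 to 523 CPM against 430 to 482 CPM. Of 14 neuron markers 0 rose and 2 fell (median -0.02), *Snap25* and *Gap43*, by 0.23 and 0.18 on the log2 scale (adjusted p = 0.0246 and 0.0484, edgeR). The number of neuron markers that fell was 4 without CDD replicate 2 and 0 without ND replicate 1, 3 or 4. The summed neuron level overlapped, at 8938 to 9965 CPM against 9332 to 9763 CPM. The part of the progenitor markers in the rise of *Stil*, *Aspm*, *Cdk5rap2* and *Cep135* was not tested.

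**Figure D4:**
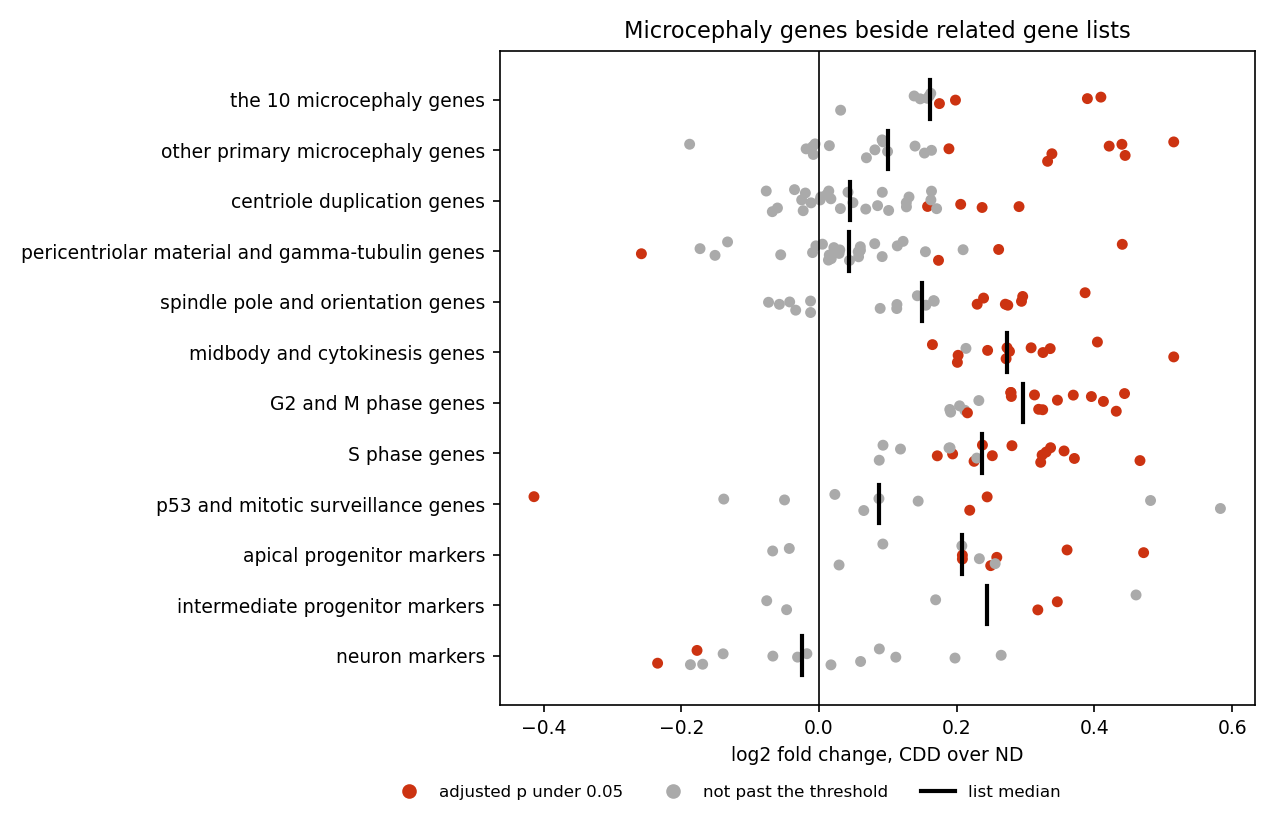
Log2 fold change of CDD over ND for each gene of the 10 microcephaly genes and of 11 related lists, with the list median as a black bar. The 10 genes (median 0.16) lie between the other centriole duplication genes (0.05) and the G2 and M phase genes (0.30).

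Other cell types that a whole brain holds were checked in the same way, and no marker was at 0 in all brains. Of 6 endothelial markers 1 fell, *Cldn5*, a tight junction gene (by 0.28 on the log2 scale, adjusted p = 0.00768, edgeR), and of 6 macrophage and microglia markers none passed. Of 6 meningeal fibroblast markers 1 rose, *Lum* (0.29, adjusted p = 0.0474, edgeR, named after its value was seen and called in 1 of 8 fits), and 2 fell, *Col1a1* and *Col1a2* (by 0.23 on the log2 scale each, adjusted p = 0.0126 and 0.0453, edgeR). Of 5 choroid plexus markers 1 rose, *Otx2* (0.20, adjusted p = 0.0327, edgeR). Of 9 erythroid markers 2 rose, the embryonic globins *Hbb-y* (2.24, adjusted p = 0.00651) and *Hba-x* (1.67, adjusted p = 0.0208, edgeR). Only 4 of the 9 estimates were above 0. The list median was -0.50, and -0.74 to -0.03 with single brains left out. The adult globins *Hba-a1*, *Hba-a2*, *Hbb-bs* and *Hbb-bt* stood at -0.64, -0.76, -0.84 and -0.62 and did not pass. Single libraries decided several of these calls. In the fits that leave out a brain *Otx2* held in 4 of 8, *Col1a1* in 6, *Col1a2* in 3 and *Hba-x* in 6, and of the neuron markers *Snap25* held in 5 and *Gap43* in 1. The summed erythroid level was 760 to 1419 CPM in the CDD brains and 823 to 2985 CPM in the ND brains.

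To place the 10 genes against dividing cells in the same brain, the mean log2 CPM of the 18 G2 and M phase genes was subtracted from the log2 CPM of each gene. The list itself was higher in the CDD brains by 0.30. After the subtraction *Stil* and *Aspm* stood 0.11 and 0.08 above their ND level, with overlapping diets. The other 8 genes stood below it, by 0.10 (*Cep135*) to 0.27 (*Cep63*). For *Wdr62*, *Cenpj* and *Cep63* every CDD brain was below every ND brain, at differences of -0.16, -0.14 and -0.27. Of all tested genes 44.5% were below in that way and 0.15% above, so a lower value on this scale was common. These values were given no test, since the list was chosen with its rise known.

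**Figure D5:**
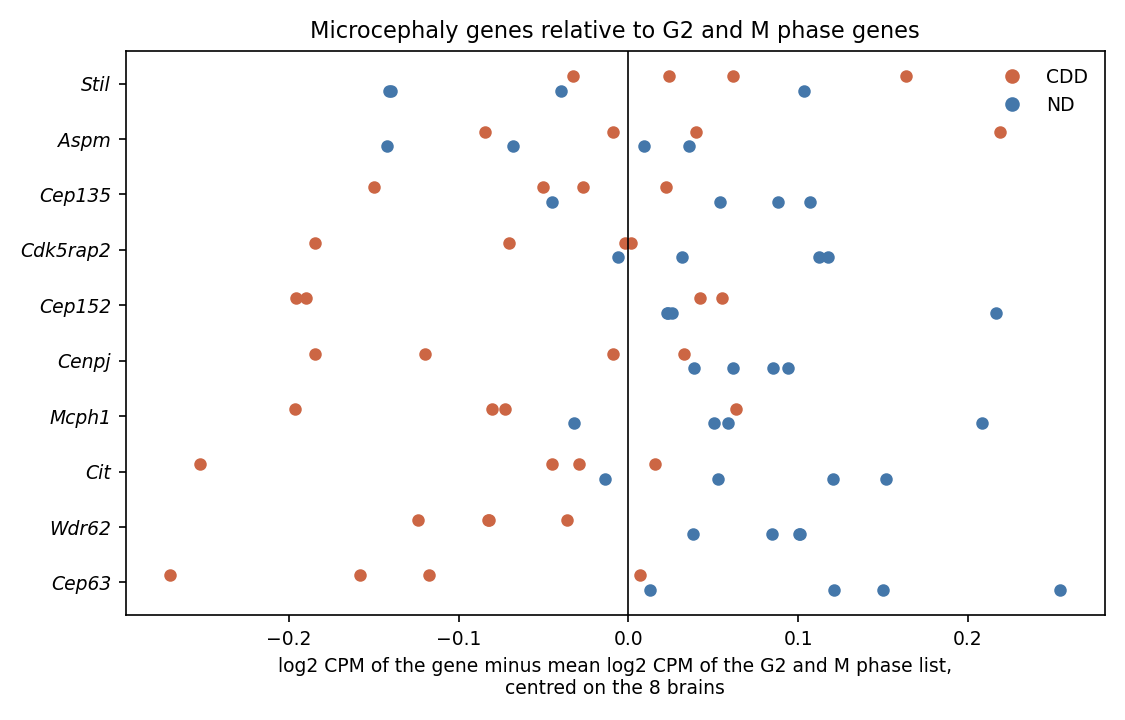
Log2 CPM of each of the 10 genes minus the mean log2 CPM of the 18 G2 and M phase genes in the same brain, centred on the mean of the 8 brains. *Stil* and *Aspm* have CDD means above their ND means, and *Wdr62*, *Cenpj* and *Cep63* do not overlap between diets, with CDD lower.

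Within diets the genes also varied together to different degrees. After the mean of each diet was removed, the correlation with the G2 and M phase list over the 8 brains was 0.948 for *Wdr62*, 0.729 for *Cenpj*, 0.720 for *Cep135*, 0.699 for *Stil* and 0.658 for *Aspm*. It was 0.259 for *Mcph1* and 0.088 for *Cep63*. Of the 45 pairs among the 10 genes 35 had a correlation above 0 (median 0.407), the highest being *Aspm* with *Cit* (0.932) and *Aspm* with *Cdk5rap2* (0.910), and the lowest *Mcph1* with *Cep63* (-0.883). These values describe 8 brains that share library preparation and scaling, and no p is given. Pairs of other genes were not counted in this way, so the values do not set the 10 genes apart.

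The tested gene whose pattern over the 8 brains, after removal of diet means, was most like that of each gene was searched among 12333 genes with at least 5 CPM. For *Stil* it was *Kdm3b* (Pearson r = 0.995), for *Aspm* *Rasal2* (0.991), for *Cdk5rap2* *Ep300* (0.994) and for *Cep135* *Frg1* (0.991). For *Cep63* it was *Pot1b* (0.994), for *Cep152* *Snx12* (0.993), for *Cit* *Gatad2b* (0.992) and for *Wdr62* *Gli3* (0.989). For *Mcph1* it was *Rnf103* (0.985) and for *Cenpj* *Plekhh1* (0.977). With 8 brains and 12333 candidates, values this high describe the search.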

How the data were processed

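Poly-A selected RNA of 8 whole brains, 4 per diet, was sequenced in bulk and samples were grouped by maternal diet as labelled. The table the authors deposited gives raw counts without normalization, the counts scaled by library size factors (a signal, also averaged by diet), and FPKM computed from the scaled counts and a listed gene length. They also deposited their own log2 fold changes and p-values, and shorter lists of genes past their cut, which were not used. The submitters' processing notes name HISAT2 2.0.5, featureCounts 1.5.0-p3 and DESeq2 1.20.0. The genome build, annotation and strand setting are not given in the sources used here. Of the table's identifiers 94.7% are in GENCODE M21, and of these 2.14% have the same start there, so gene coordinates are as the table lists them and were not mixed with GRCm38.p6.

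The filterByExpr step kept 19367 genes. After TMM scaling, CDD and ND were compared with the robust quasi-likelihood test of edgeR 4.0.16, diet being the single term, and p-values were adjusted by Benjamini-Hochberg over those genes. The threshold was an adjusted p-value under 0.05. Software was Python 3.11.15 with NumPy 2.4.6, pandas 2.3.3 and matplotlib 3.10.9, and R 4.3.3 with DESeq2 1.42.0 and limma 3.58.1. The common biological coefficient of variation was 0.0814. On simulated counts (19126 genes) the test called 42 of 47 genes changed by 1 and 44 of 46 changed by 1.5 on the log2 scale, with 8 false calls. Chi-square values per degree of freedom between brains were 3.757 to 30.76, so no library was a copy of another. CDD replicate 4 lay furthest from the ND brains, at 21.39 to 30.76.

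The genes, the 17 companion lists and the named genes were chosen with earlier results of these data known. Named were all 10 genes, the 2 genes of each list with the smallest p that are not among the 10, the closest gene in pattern for each, and overlapping or divergent neighbours. *Hox* genes did not pass the filter. Alternatives were another tool (DESeq2, limma-voom), scaling (RLE, upper quartile), filter (none, or at least 10 counts in every brain), a gene length offset, limma on log2(FPKM + 1), an adjusted p under 0.01, the replicate number as a block and leaving out each brain. Promoters were 250 bases before to 50 after each start, from RefSeq. CPM on the log2 scale used a prior count of 2.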

Additional observations from a re-analysis of the deposited data

Results flagged for a closer look

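Single brains stood apart from the other 3 of their diet in 3 of the 40 groups of 4 values examined by Dixon's test, where about 2 are set apart by chance. *Wdr62* in ND replicate 2 was at 3.95 log2 CPM, and the other ND brains were at 3.75 to 3.78. *Cit* in CDD replicate 4 was at 5.76 log2 CPM, and the other CDD brains were at 5.47 to 5.52. *Cep152* minus the mean of the G2 and M phase genes was 0.22 in ND replicate 3 on the centred log2 scale, and 0.02 to 0.03 in the other ND brains. The cause of these values was not tested.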

How the results depend on the processing

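Of 180 values of single genes under alternatives, 161 kept their direction and side of the threshold. The other 19 kept the direction and lost the call, and none reversed. All 19 were values of *Aspm*, *Cdk5rap2* and *Cep135*, and the 6 genes not called in the main fit had no call to lose. *Stil* kept its call in 8 of 8 fits that leave out a brain and in 10 of 10 other alternatives. *Aspm* kept it in 7 and 9 of these, *Cdk5rap2* in 4 and 7, and *Cep135* in 2 and 6. Genes called among all tested numbered 1710, against 519 with limma on log2(FPKM + 1) and 477 at an adjusted p under 0.01, and 471 to 2495 with single brains left out (471 without ND replicate 3, 615 without ND replicate 4, 688 without ND replicate 1). Of the 10 genes, 4 were called higher, against 1 (*Stil*) with limma on log2(FPKM + 1), 2 (*Stil* and *Aspm*) at an adjusted p under 0.01, and 1 to 4 with single brains left out: 1 without ND replicate 3, and 2 without ND replicate 1, 2 or 4. None was called lower under any alternative. The gene length offset called 2073 genes, 58.0% of them higher against 48.1% otherwise, and kept 4 of the 10. With the replicate number as a block 1812 genes and 3 of the 10 were called, *Cep135* reaching an adjusted p of 0.0580. Deviations of brains with the same number correlated at 0.105, -0.133, 0.117 and 0.232, so the numbers were not taken to pair the brains. *Cdk5rap2* was also not called with limma-voom, and *Cep135* not without a filter. In the simulated counts, 12 of 50 genes given a log2 change of 0.25 were called. Far fewer genes were changed there than the 1710 called here, which made the adjusted threshold stricter. The share of such changes missed in these brains can therefore not be read from it.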
